A study of Mus musculus with 8 samples.

Results

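The 5 miRNAs described here lie inside the mouse Hox gene clusters: miR-10a-5p, miR-10b-5p, miR-196a-5p, miR-196b-5p and miR-615-3p. They were chosen by name from the 1281 mature miRNAs measured, and occupy 6 of the 1418 entries because miR-196a-5p has an entry for each of its precursors. Small RNA was sequenced from 2 materials. Calvaria, the flat parietal and frontal bones of the skull vault, gave 3 libraries from C57BL/6 female mice aged 2 to 3 days that all carried Prrx1-Cre, a transgene driving Cre recombinase in limb bud and part of the skull mesenchyme. The bones were briefly digested with collagenase type II and trypsin before RNA isolation. MC3T3 E1 sc4, a single clone of pre-osteoblasts derived from mouse calvaria, labelled C57BL/6 and used at passage 10 to 15, gave 5 libraries at days 0, 6, 10, 17 and 24. Day 0 was undifferentiated, and ascorbic acid with β-glycerol phosphate drove osteogenic differentiation. Each MC3T3 library pooled equal RNA from 3 cultures, so no day had a replicate. Whether the 3 calvaria libraries stand for separate animals is not in the labels. The p-values below therefore describe only how far these libraries scatter, which may be technical.

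The 4 Hox clusters encode transcription factors that set position along the head-to-tail axis of the embryo. Genes at one end of a cluster are used from the hindbrain backwards and genes at the other end only in the hind trunk, limbs and tail. miRNA genes sit between them and are commonly transcribed with their neighbours. The bones of the skull vault come from cranial neural crest and head mesoderm, cells that form in front of most Hox gene expression. Mature miRNAs guide Argonaute proteins to mRNAs mainly through the seed, bases 2 to 8. In mouse, miR-196 directs cleavage of the Hoxb8 mRNA, and in zebrafish miR-10 represses Hox mRNAs.

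The mature sequences are shown because the members fall into seed families whose paralogs differ by a single base, which bears on how well reads can be told apart. They are RefSeq sequences (GRCm38.p6), with the seed in capitals.
mmu-miR-10a-5p: uACCCUGUagauccgaauuugug
mmu-miR-10b-5p: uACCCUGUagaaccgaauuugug
mmu-miR-196a-5p: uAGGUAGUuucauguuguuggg
mmu-miR-196b-5p: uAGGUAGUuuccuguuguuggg
mmu-miR-615-3p: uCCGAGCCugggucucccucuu
All 5 members had a sequence in the table. Counted from 1 at the 5′ end, miR-10a-5p and miR-10b-5p differed only by U12A, miR-10a-5p first, and miR-196a-5p and miR-196b-5p only by A12C, miR-196a-5p first. Both differences lie outside the seed. Of 1679 mature mouse sequences in the table, no others shared the seed ACCCUGU of the miR-10 pair or AGGUAGU of the miR-196 pair, and CCGAGCC was found in miR-615-3p alone.

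On GRCm38, the build named mm10 in the submitters' processing notes, the 6 precursor genes occupied all 4 clusters. In the HoxB cluster, Mir10a (chr11:96317165-96317274, plus strand) lay between genes, 993 bases from Hoxb4 and 11044 from Hoxb5, and Mir196a-1 (chr11:96265164-96265265, plus strand) lay between Hoxb13 and Hoxb9, 6192 bases from Hoxb9. In the HoxC cluster, Mir196a-2 (chr15:102973350-102973434, plus strand) lay between Hoxc10 and Hoxc9, 1457 and 3005 bases away, within an intron of a long annotated Hoxc5 transcript. Mir615 (chr15:103014910-103015001, plus strand) also lay in a Hoxc5 intron, between Hoxc6 and Hoxc4. Mir10b (chr2:74726070-74726137, plus strand) was intronic to annotated transcripts of Hoxd3 and Hoxd4. Mir196b (chr6:52230081-52230165, minus strand) overlapped Hoxa9, in an exon of some transcripts and an intron of others, 1032 bases from Hoxa10. The miR-10 genes thus neighbour the Hox4 genes and the miR-196 genes neighbour the Hox9 and Hox10 genes, which act further towards the tail.

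**Figure D1:**
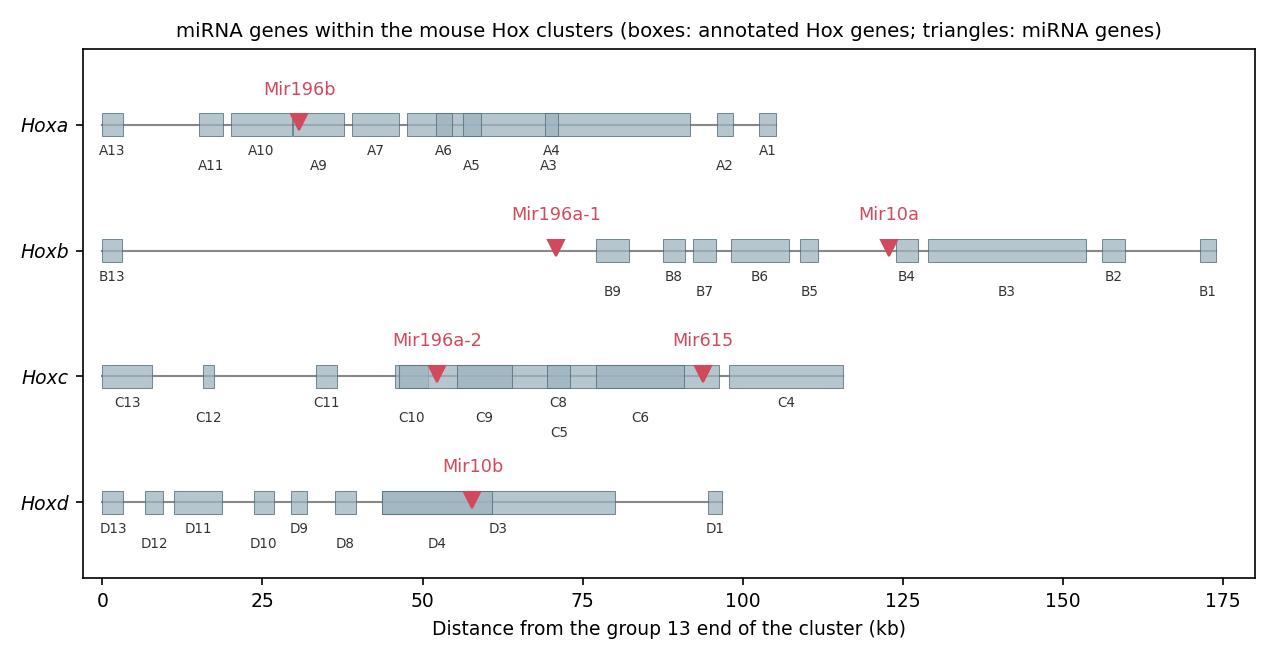
Map of the 4 Hox clusters, 1 per row, with distance along each cluster in kilobases on the horizontal axis, Hox genes as boxes and the 6 miRNA genes marked. The miR-10 genes stand beside Hoxb4 and Hoxd4, and the 3 miR-196 genes beside Hoxb9, Hoxc9 with Hoxc10, and Hoxa9 with Hoxa10.

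Library totals were 1183011 to 2023036 estimated counts in calvaria and 2742368 to 4031962 in MC3T3. Levels are given as RPM, the usual read number scaled to a common total over all miRNA counts of a library. At day 0, miR-21a-5p took 45.5% of the MC3T3 counts, against 11.2% to 20.1% at the later days. RPM divide by totals that include these counts. The 5 mesenchymal miRNAs listed (miR-199a, miR-214, miR-143 and miR-145a) summed to 131924 to 145904 RPM in calvaria and 130003 to 187906 RPM in MC3T3. The overlap held for the sum and not for each miRNA. miR-199a-3p had 49959 to 55986 RPM in calvaria and 19984 to 41864 RPM in MC3T3. miR-143-3p went the other way, with 50332 to 64103 RPM in calvaria and 87473 to 117479 RPM in MC3T3. The 95% interval of a level in 1 library is the exact Poisson interval of its count. It covers counting error only, since no molecular identifiers mark the reads.

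The first comparison asked how the Hox cluster miRNAs of skull bone compare with those of a cell line derived from skull bone. miR-10b-5p was far higher in calvaria, and miR-10a-5p, miR-196a-5p, miR-196b-5p and miR-615-3p were far higher in MC3T3. The material with more miR-10b-5p had less of its paralog, and the reverse. The miR-196 pair and miR-615-3p were at 0 to 3 counts in each calvaria library.

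miR-10b-5p, the product of the HoxD cluster, had 1565, 1954 and 2917 RPM in calvaria 1, 2 and 3. In MC3T3 it had 10.4, 9.19, 11.8, 5.33 and 8.02 RPM at days 0, 6, 10, 17 and 24, from 21 to 42 counts per library. Every calvaria library lay above every MC3T3 library, by over 2 orders of magnitude. The averages were 2145 ± 696 RPM in calvaria (SD, n = 3) and 8.94 ± 2.45 RPM in MC3T3 (SD, n = 5). Pooled counts gave a level 240.3-fold higher in calvaria (95% interval 204.6 to 284.1). The intervals of pooled counts, for this and the other members, cover counting error only and leave out the spread between libraries. Among all mature miRNAs of a library, it ranked 48th to 66th by level in calvaria and 251st to 326th in MC3T3.

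miR-10a-5p, which shares its seed and all but 1 base with miR-10b-5p, had 88.3, 120.6 and 171.6 RPM in calvaria 1, 2 and 3. In MC3T3 it had 7061, 5968, 6076, 5620 and 5650 RPM at days 0, 6, 10, 17 and 24. The materials did not overlap here either, with the opposite direction. The averages were 127 ± 42.0 RPM in calvaria (SD, n = 3) and 6075 ± 585 RPM in MC3T3 (SD, n = 5). Pooled counts gave a level 48.0-fold higher in MC3T3 than in calvaria (95% interval 44.3 to 52.2). Its rank was 156th to 199th in calvaria, and 22nd to 31st in MC3T3, where it was the most abundant of the 5 members at every day.

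miR-196a-5p, made from the HoxB and HoxC clusters, had 0, 0 and 2 counts in calvaria 1, 2 and 3, which is 0, 0 and 1.49 RPM. In MC3T3 it had 125.8, 119.5, 66.7, 38.6 and 26.6 RPM at days 0, 6, 10, 17 and 24. Its calvaria total of 2 counts was near the limit of detection, since even a count of 0 allows up to 3 counts (0.659 RPM over the group). A level this low cannot be measured well at this depth. The pooled ratio of MC3T3 to calvaria was 176.3, with a wide interval of 48.7 to 1458.

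miR-196b-5p, from the HoxA cluster, had 1, 1 and 0 counts in calvaria 1, 2 and 3, which is 0.845, 0.494 and 0 RPM. In MC3T3 it had 33.9, 148.3, 107.9, 79.4 and 99.2 RPM at days 0, 6, 10, 17 and 24. It too was near the limit of detection in calvaria, and its lowest rank in MC3T3 was 187th. The pooled ratio of MC3T3 to calvaria was 204.4 (95% interval 56.5 to 1689).

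miR-615-3p, from the Hoxc5 intron, had 2, 3 and 1 counts in calvaria 1, 2 and 3, which is 1.69, 1.48 and 0.744 RPM. In MC3T3 it had 163.9, 79.5, 52.5, 61.7 and 51.4 RPM at days 0, 6, 10, 17 and 24. Day 0 stood above the other MC3T3 libraries, and the lowest MC3T3 library was still far above the highest calvaria library. The pooled ratio of MC3T3 to calvaria was 65.2 (95% interval 29.9 to 177.9).

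**Figure D2:**
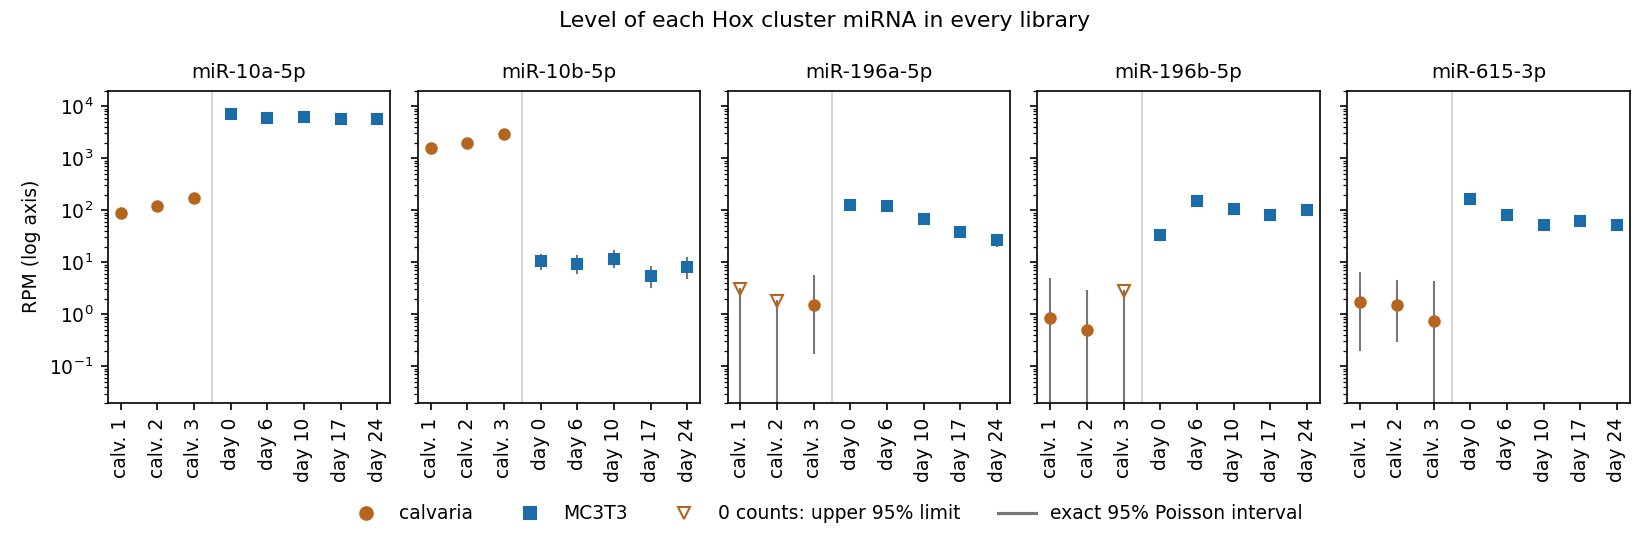
Level of each of the 5 Hox cluster miRNAs (RPM, log axis) in the 3 calvaria libraries, left, and the 5 MC3T3 libraries, right; points are libraries, bars are exact 95% Poisson intervals, and an open triangle marks the upper limit of a library with 0 counts. miR-10b-5p lies at 1565 to 2917 RPM in calvaria and 5.33 to 11.8 RPM in MC3T3, and the other 4 miRNAs lie higher in MC3T3.

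The test set the 3 calvaria libraries against the 5 MC3T3 libraries, whose spread includes the change over days, with the edgeR quasi-likelihood test and Benjamini-Hochberg adjustment over all 473 mature miRNAs tested. Of these, 36.2% were called higher in calvaria and 28.3% lower at an adjusted p under 0.05, so a call by itself was common. All 5 members were called, 1 higher and 4 lower in calvaria. miR-10a-5p and miR-10b-5p had at least 10 counts in every library. miR-196a-5p, miR-196b-5p and miR-615-3p entered the test only through their MC3T3 counts and so had to differ. Their calls are therefore given as a description.

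For miR-10b-5p the log2 difference, calvaria minus MC3T3, was 7.67 ± 0.37 (SE; edgeR adjusted p = 2.02e-08), the 79th highest of the 473. For miR-10a-5p it was -5.81 ± 0.37 (SE; edgeR adjusted p = 1.52e-07), the 7th lowest. The fitted log2 differences of the other members were -7.69 ± 0.63 for miR-196b-5p (edgeR adjusted p = 1.4e-06), -7.49 ± 1.05 for miR-196a-5p (9e-05) and -6.20 ± 0.79 for miR-615-3p (4.03e-05). Those 3 values depend on how the fit treats counts near 0. Without calvaria 3, the single calvaria library with miR-196a-5p counts, that miRNA's value was -10.9. miR-196b-5p and miR-196a-5p held the lowest and the 2nd lowest places among the 473, and miR-615-3p the 6th. The median log2 difference over all 473 miRNAs tested was 0.09. With limma on log2(RPM + 10) in place of edgeR, the differences of miR-196a-5p, miR-196b-5p and miR-615-3p shrank to -2.84, -3.20 and -2.90 on that scale, with each call kept.

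**Figure D3:**
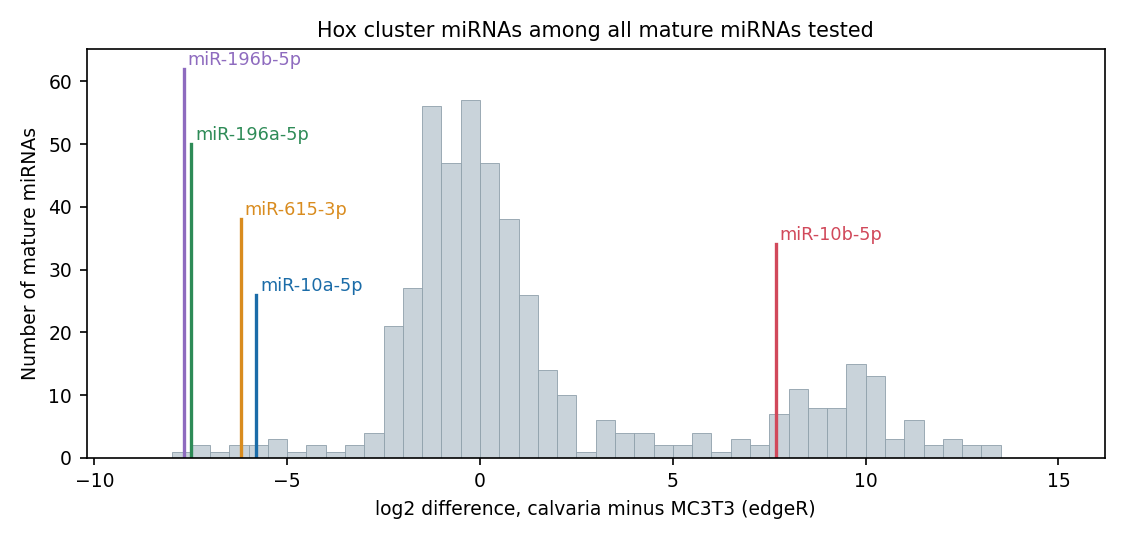
Log2 difference, calvaria minus MC3T3, of the 5 Hox cluster miRNAs (vertical lines), over the distribution of the 473 mature miRNAs tested; the heights of the member lines have no meaning. miR-10b-5p stands at 7.67 on the right, and the other 4 stand between -7.69 and -5.81 at the left edge.

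Summed, the members differed less between materials than any one of them did. All 5 Hox cluster miRNAs together came to 2275 ± 738 RPM in calvaria (SD, n = 3) and 6335 ± 643 RPM in MC3T3 (SD, n = 5). Which miR-10 paralog made up that sum differed almost completely. Of the reads of both miR-10 paralogs, miR-10b-5p held 94.7%, 94.2% and 94.4% in calvaria 1, 2 and 3. The exact binomial intervals of these shares overlapped and together spanned 93.4% to 95.6%. In MC3T3 miR-10b-5p held 0.147%, 0.154%, 0.196%, 0.0947% and 0.142% at days 0, 6, 10, 17 and 24. How reads with a mismatch were assigned is not stated in the sources used here, so at such shares miR-10b-5p reads in MC3T3 were not separated from misassigned reads of miR-10a-5p.

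While miR-10a-5p and miR-10b-5p each varied between calvaria libraries, their ratio hardly did. Each was lowest in calvaria 1 and highest in calvaria 3. Whether part of the miR-10a-5p counts in calvaria were misassigned reads of miR-10b-5p was not tested. The log2 ratio of miR-10b-5p to miR-10a-5p was 4.08 ± 0.06 in calvaria (SD, n = 3) and -9.43 ± 0.37 in MC3T3 (SD, n = 5), with 0.5 counts added to each count. The difference of 13.51 was larger than any spread within a material (exact two-sided permutation test, p = 0.0357, the smallest that 56 assignments allow; adjusted over 4 ratios, 0.0476). Such ratios within a library do not depend on the scaling between libraries. Levels of different miRNAs also carry the preferences of adapter ligation, which were not measured here.

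The ratios of the other members to the miR-10 family rested on few calvaria reads, 0 to 3 counts of each such miRNA per library, so their calvaria side is set largely by the counts added. The log2 ratio of both miR-196 to both miR-10 was -10.83 ± 0.56 in calvaria (SD, n = 3) and -5.23 ± 0.45 in MC3T3 (SD, n = 5), a difference of -5.61 (exact permutation test, adjusted p = 0.0476). The log2 ratio of miR-615-3p to both miR-10 was -10.42 ± 0.93 in calvaria and -6.36 ± 0.57 in MC3T3 (SD, n = 3 and 5), a difference of -4.07 (exact permutation test, adjusted p = 0.0476). With 5 counts added in place of 0.5, these differences were -3.79 for the miR-196 pair and -2.54 for miR-615-3p, so their size is not fixed by these data. Since these miRNAs were near 0 counts in calvaria, both ratios had to separate the materials. Their p-values are therefore given as a description. The ratio of miR-196b-5p to miR-196a-5p rested on 0 to 2 counts in each calvaria library. It gave no difference past the threshold (log2 difference -0.13, exact permutation test, p = 0.964), and these counts cannot bound it usefully.

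**Figure D4:**
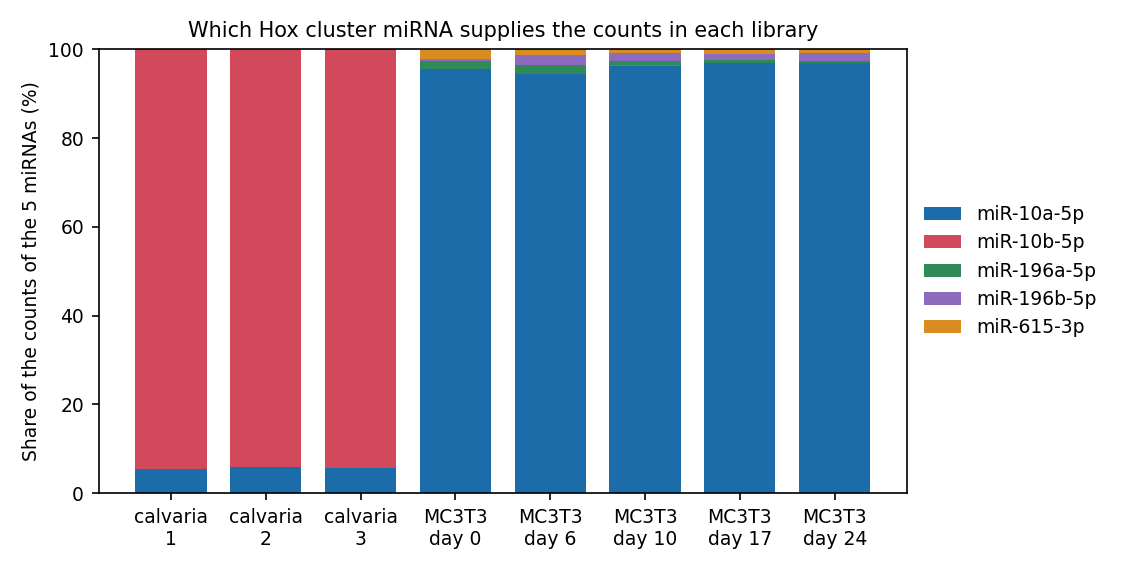
Share (%) of each Hox cluster miRNA in the counts of all 5, per library, calvaria left and MC3T3 right. miR-10b-5p makes up 94.1% to 94.5% in calvaria and miR-10a-5p makes up 94.4% to 96.8% in MC3T3.

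The other arms of the same hairpins gave a second reading of each locus. miR-10b-3p had 0, 2 and 3 counts in calvaria 1, 2 and 3 and 0 counts in all 5 MC3T3 libraries, which over that group allows up to 0.177 RPM. miR-10a-3p had 1, 0 and 0 counts in calvaria 1, 2 and 3 and 103, 57, 43, 94 and 54 counts in MC3T3 at days 0, 6, 10, 17 and 24. Each minor arm was thus found mainly in the material where its 5p partner was high. miR-10a-3p was lower in calvaria by a log2 difference of -6.43 ± 0.77 (SE; edgeR adjusted p = 2.43e-05), and it also entered the test only through MC3T3. It made up 0.227% to 0.423% of the reads of both miR-10a arms in MC3T3. The other minor arms were scarce: miR-196b-3p had 6 counts and miR-615-5p 3 counts over all MC3T3 libraries, and both had none in calvaria.

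Both miR-196a genes make the same 5p sequence, and the deposited counts divide its reads between 2 entries. In MC3T3 the mir-196a-2 entry held 53.1%, 52.8%, 51.7%, 48.7% and 45.2% of them at days 0, 6, 10, 17 and 24, and every one of the 5 exact binomial intervals included an even division. The 3p arms do differ between the genes, as their sequences show.
mmu-miR-196a-1-3p: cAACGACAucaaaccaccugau
mmu-miR-196a-2-3p: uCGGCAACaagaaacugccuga
Over the 5 MC3T3 libraries, miR-196a-2-3p had 19 counts and miR-196a-1-3p had 2, so 90.5% of these 21 reads belonged to the HoxC gene (exact binomial 95% interval 69.6% to 98.8%). The near-even 5p entries therefore do not show how much each gene contributes, and the stability of the 2 3p arms was not measured. Neither 3p arm was counted in calvaria.

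The second comparison followed the 5 miRNAs over the 24 days of MC3T3 differentiation. miR-196a-5p fell, miR-615-3p was highest at day 0, miR-196b-5p was lowest at day 0, and both miR-10 paralogs kept their large difference throughout. A straight line in day for the log2 level was fitted to the counts of the 5 libraries with edgeR, so its spread is the departure from the line. Of 392 mature miRNAs tested, 1.28% were called falling and 1.02% rising at an adjusted p under 0.05, and miR-196a-5p was the single member called. Leaving out 1 library gave 0 to 28 rising and 0 to 31 falling miRNAs with edgeR, both highest without day 0 and falling ones at 0 without day 6, 17 or 24.

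miR-196a-5p had 507.16 counts at day 0 and 73 at day 24. Its intervals at day 0 (115.1 to 137.2 RPM) and day 6 (107.7 to 132.2 RPM) overlapped, and each later library lay below the one before it. At day 24 it was 0.212 times that of day 0 (95% interval 0.163 to 0.271). The fitted log2 change over 24 days was -2.77 ± 0.37 (SE; edgeR adjusted p = 0.0354), the 9th lowest of the 392. Taken apart, the mir-196a-1 and mir-196a-2 entries also fell, with log2 changes of -2.49 and -2.97 (edgeR adjusted p = 0.0275 and 0.0204). These entries divide the reads of the same sequence nearly evenly, so both had to fall with it. Their values are therefore given as a description. The call was lost when library totals replaced TMM factors (edgeR adjusted p = 0.0938), in limma (0.0698 and 0.0794) and without the library of day 6, 17 or 24 (0.0529 to 0.0985), with the direction kept in all of these.

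miR-196b-5p, which has the same seed, took a different course. Its level at day 6 was 4.36 times that of day 0, with intervals of 135.2 to 162.4 RPM at day 6 and 28.5 to 40.1 RPM at day 0. At day 24 it was 0.669 times that of day 6 (95% interval 0.574 to 0.778). The fitted change of 0.37 ± 0.63 did not pass (SE; edgeR adjusted p = 0.743), and without the day 0 library its sign turned to -0.56. Within the miR-196 pair, miR-196b-5p held 21.3%, 55.4%, 61.8%, 67.3% and 78.8% of reads at days 0, 6, 10, 17 and 24. The pair was thus mostly miR-196a-5p at day 0 and mostly miR-196b-5p from day 6 on, and no scaling between libraries affects this share. The intervals of day 0 (18.2% to 24.6%) and day 6 (52.0% to 58.8%) were far apart, and that of day 24 (74.1% to 83.0%) lay above that of day 17 (62.8% to 71.6%). With 1 library per day these steps carry counting error only and were not tested.

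miR-615-3p at day 6 was 0.485 times its level at day 0 (95% interval 0.418 to 0.562). It then lay between 51.4 and 79.5 RPM. The linear change of -1.89 ± 0.58 did not pass (SE; edgeR adjusted p = 0.116), while a line in log2(day + 1) gave -2.20 (edgeR adjusted p = 0.00143). Without the day 0 library the linear change was -0.38.

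In RPM, the miR-10 paralogs ended nearest to their day 0 level. miR-10a-5p at day 24 was 0.800 times its level at day 0 (95% interval 0.785 to 0.816). Its linear change of -0.64 ± 0.37 did not pass (SE; edgeR adjusted p = 0.331), and it was 0.074 without the day 0 library. For miR-10b-5p the fitted value was -0.95 ± 0.56 (SE), with the same adjusted p from edgeR. Its lowest level, at day 17, was 0.447 times that of day 10 (95% interval 0.249 to 0.784). The members' median fitted change was -0.95, against -0.12 over all 392 miRNAs.

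How day 0 compares with later days depended in part on the scaling. The TMM factor of day 0 was 0.740, against 1.01 to 1.18 for the later days. With TMM factors, miR-10a-5p stood at 9540 at day 0 and 5067 at day 6 (RPM over the scaled library size), a wider step than in RPM. For miR-615-3p the step was also wider, with 221.5 at day 0 and 67.5 at day 6, so that day 6 was 0.305 times day 0 in place of 0.485. miR-196b-5p stood at 45.9 and 125.9, a narrower step. miR-196a-5p was then lower at day 6 as well, with 169.9 at day 0 and 101.4 at day 6. The high share of miR-21a-5p at day 0 moved with these differences, and its part in them was not tested.

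**Figure D5:**
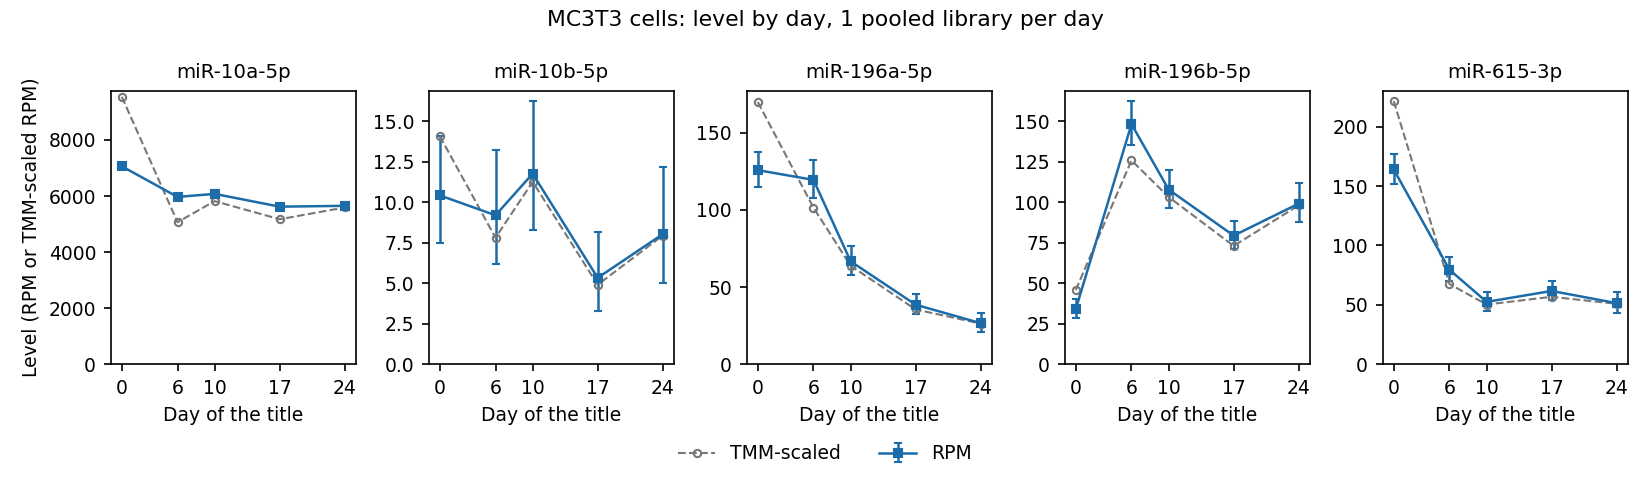
Level of each Hox cluster miRNA in MC3T3 at days 0, 6, 10, 17 and 24, as RPM with exact 95% Poisson intervals (solid) and after TMM scaling (dashed), each axis starting at 0. miR-196a-5p ends at 26.6 RPM against 125.8 RPM at day 0, while miR-196b-5p is at 99.2 RPM against 33.9 RPM.

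Calvaria is a tissue and holds more cell types than the clone, so marker miRNAs of other cells were read beside these results. Both endothelial miRNAs (miR-126-3p and miR-126-5p) summed to 9028 to 20323 RPM in calvaria and 6.20 to 19.0 RPM in MC3T3. miR-126-3p alone had 8135, 9725 and 19091 RPM in calvaria 1, 2 and 3, the same order of libraries as miR-10a-5p and miR-10b-5p. The endothelial miRNAs thus moved with the miR-10 levels among calvaria libraries and between materials for miR-10b-5p, and their part in the result was not tested. That order was not particular to them. The blood cell miRNA miR-451a (85.4, 116.4 and 170.5 RPM) and the nervous system miRNA miR-9-5p (57.5, 73.2 and 92.3 RPM) had it too. Of the other blood cell miRNAs, miR-144-3p and miR-486-5p had this order, and miR-142-3p, miR-142-5p, miR-223-3p and miR-150-5p did not. Nor did the nervous system miRNA miR-128-3p (541.8, 608.0 and 533.0 RPM) or both cartilage miRNAs, which were lowest in calvaria 3. All 7 blood cell miRNAs were measured and summed to 307.7 to 454.1 RPM in calvaria and 38.9 to 110.6 RPM in MC3T3. Most of the MC3T3 sum was miR-486-5p, at 47.8 to 59.6 RPM in calvaria and 36.5 to 107.1 RPM in MC3T3, and the other 6 stood at 21.6 to 170.5 RPM in calvaria and 0 to 3.22 RPM in MC3T3. Both cartilage miRNAs (miR-140) summed to 55110 to 99359 RPM in calvaria and 16831 to 24518 RPM in MC3T3. The 7 epithelial miRNAs summed to 73.7 to 82.0 RPM in calvaria and 3.22 to 12.4 RPM in MC3T3. Most of the calvaria sum was miR-203-3p, at 52.4 to 56.4 RPM. miR-205-5p had 0.845 to 1.98 RPM in calvaria and 0.496 to 3.49 RPM in MC3T3. miR-429-3p had 3.38, 0.494 and 0 RPM in calvaria 1, 2 and 3 and was at 0 in MC3T3. The 4 measured of 5 nervous system miRNAs summed to 599.3 to 682.1 RPM in calvaria and 325.6 to 460.1 RPM in MC3T3, where miR-124-3p and miR-137-3p were at 0. In calvaria these miRNAs were near 0 as well, at no more than 0.994 and 0.744 RPM. Most of both sums was miR-128-3p, at 533.0 to 608.0 RPM in calvaria and 271.7 to 445.7 RPM in MC3T3. The 6 muscle miRNAs summed to 283.2 to 642.4 RPM in calvaria and 212.6 to 574.4 RPM in MC3T3, with miR-208b-3p at 0 in all libraries. That overlap held for the sum and not for each miRNA: miR-1a-3p had 202.2 to 381.1 RPM in calvaria and 16.1 to 88.1 RPM in MC3T3, and miR-206-3p had 45.0 to 203.2 RPM in calvaria and 104.3 to 556.3 RPM in MC3T3. The part of these cells in the results was not tested either, and in a bulk sample fewer cells of a type and less RNA per cell cannot be told apart.

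For each member, the miRNAs with the most similar pattern were found among 355 miRNAs of at least 10 RPM on average, by the root mean square difference of centred log2(RPM + 1) over the 8 libraries. These patterns are dominated by the difference between materials, and all points share libraries and scaling. The nearest to miR-10a-5p was miR-34c-5p, at 0.52 log2 units, with 347.9 ± 38.9 RPM in calvaria and 10792 ± 2443 RPM in MC3T3 (SD, n = 3 and 5). miR-34c-5p was also among the 3 nearest to miR-196a-5p, miR-196b-5p and miR-615-3p, whose nearest were miR-34b-3p (0.83), miR-31-3p (0.35) and miR-34b-5p (0.54). Since miR-196a-5p, miR-196b-5p and miR-615-3p were near 0 counts in calvaria, this closeness depends on the 1 RPM added. With edgeR their log2 differences were -7.49, -7.69 and -6.20, against -5.13, -6.66 and -5.24 for those nearest miRNAs. miR-34b-3p and miR-31-3p were also among the 3 nearest to miR-10a-5p, miR-34c-3p to miR-196a-5p, miR-31-5p to miR-196b-5p and miR-34b-3p to miR-615-3p. The nearest to miR-10b-5p were miR-409-5p (0.42), miR-411-3p (0.45) and miR-431-5p (0.48), which lie outside the Hox clusters in the Dlk1-Dio3 region. They averaged only 0.164, 0.187 and 0 RPM in MC3T3, so their closeness depends on the 1 RPM added before taking logs. With edgeR, their log2 differences between materials were larger, at 9.68, 9.17 and 11.4, against 7.67 for miR-10b-5p. miR-431-5p had 138.3 ± 6.34 RPM in calvaria (SD, n = 3) and 0 counts in every MC3T3 library.

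Over the 5 MC3T3 libraries alone, with 274 candidates, other miRNAs came nearest. The course of miR-196b-5p was matched most closely by miR-450b-3p (0.074 log2 units) and miR-322-3p (0.15), which belong to a shared cluster on the X chromosome. miR-322-3p had 497.8, 2166, 1893, 1477 and 1449 RPM at days 0, 6, 10, 17 and 24, low at day 0 and highest at day 6 as miR-196b-5p was. The nearest to miR-196a-5p was miR-125b-1-3p (0.24), with 597.7, 577.1, 249.0, 162.9 and 167.7 RPM at those days. miR-501-3p (0.12) was nearest to miR-10a-5p, miR-99b-5p (0.25) to miR-10b-5p and miR-30c-2-3p (0.16) to miR-615-3p. The rest of the 3 nearest were miR-1843b-3p and miR-30d-5p for miR-10a-5p, miR-30a-3p and miR-671-3p for miR-10b-5p, miR-92a-3p and miR-5099 for miR-196a-5p, miR-467d-5p for miR-196b-5p, and miR-1249-3p and miR-7a-5p for miR-615-3p. The paralogs of a seed family were not candidates for each other, since all member names were left out.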

How the data were processed

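Small RNA libraries were made from total RNA using an NEBNext kit for small RNA, according to the labels' protocols. The authors deposited estimated counts (expected counts) per mature arm and precursor, and RPM that equal those counts over the library total to within 0.0127 RPM. cutadapt 0.9.5, Bowtie 0.12.7 and mm10 are named in the submitters' processing notes. Neither the quantifier nor the treatment of mismatches is given in the sources used here. Among nonzero counts, 82.4% of those from single-entry miRNAs were whole (tolerance 0.005), against 17.0% of those from miRNAs that have several entries. Fractions occurred in both members of the miR-10 and miR-196 pairs, so paralog levels are uncertain where one is scarce. MC3T3 column names give days 3 lower than the titles, which were followed, and the later ones carry a mark, "veh", left unexplained.

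Counts were summed over precursors, rounded and tested with edgeR 4.0.16 (R 4.3.3, TMM factors; at least 10 counts in 3 of 8 libraries, or in 2 MC3T3 libraries for the day trend), after tests on simulated data. Ratios used exact permutation tests (scipy 1.17.1). Alternatives used DESeq2 1.42.0, limma 3.58.1, other factors and filters, and left out libraries. Members and lists were chosen with earlier results of these data known. All members, the other arms of their hairpins and the 3 miRNAs nearest in pattern to each, over 8 libraries and over MC3T3 alone, are named.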

Additional observations from a re-analysis of the deposited data

Results flagged for a closer look

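miR-615-3p had 163.94 RPM in the MC3T3 library of day 0, and its gap to the next library, day 6, was 0.750 of the whole range over the 5 MC3T3 libraries. The critical value for 5 samples is 0.71, and chance flags about 1 in 20 groups. That rate is for replicates of a single group, while these 5 libraries are different days. All 5 members were screened, so the rate is only a guide. The same library also held the highest level of miR-10a-5p and the lowest of miR-196b-5p.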

How the results depend on the processing

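All alternatives to the calvaria comparison kept the direction and the call of each of the 5 members. For miR-196a-5p, miR-196b-5p and miR-615-3p, with 0 to 3 counts in each calvaria library, this is a description only, since they had to differ. The count of miRNAs higher in calvaria was 87 with 10 counts asked in 5 libraries, against 171. Upper quartile factors moved the median over all miRNAs to -0.35, against 0.09, and the split to 143 higher and 189 lower. The day trend counts were less stable than the main 4 rising and 5 falling: 0 and 0 with library totals and with limma at both pseudocounts (at unadjusted p the edgeR counts were 40 and 51), 7 and 10 without a filter, 3 and 2 with the filter in 5 libraries, 19 and 14 with DESeq2's Wald test, 6 and 8 with precursor entries apart, and 40 and 49 with log2(day + 1). Leaving out 1 library gave 0 to 28 rising and 0 to 31 falling, highest when day 0 was omitted; omitting day 24 gave 1 and 0. For miR-196a-5p the trend was -2.48 with library totals and -2.42 and -2.09 with limma at pseudocounts of 1 and 10, none past the threshold, and -3.20 to -2.57 with 1 library left out. With 1 library left out, the trend of miR-10a-5p was -1.11 to 0.074 and that of miR-196b-5p -0.56 to 0.88, both reversed without day 0. That of miR-615-3p was called with log2(day + 1), at -2.20. Ratio differences stayed at 13.36 to 13.62 (miR-10b-5p to miR-10a-5p), -5.85 to -5.30 (miR-196 to miR-10) and -4.47 to -3.56 (miR-615-3p to miR-10) with 1 library left out, and at 13.52, -5.67 and -3.83 over days 6 to 24. In those designs, too small to pass the threshold, the adjusted p was 0.127 or 0.0762. With 5 counts added, the last 2 differences were -3.79 and -2.54, both still called, again as a description only. The ratio of miR-196b-5p to miR-196a-5p ranged from -0.78 to 1.18 and was reversed without calvaria 3 (1.18), day 17 (0.030) or day 24 (0.24). The cause was not tested. No paired analysis was possible because each MC3T3 day has 1 library and the replicate numbers were given in accession order. Depth limits the calvaria values of the miR-196 pair and miR-615-3p, which rest on 0 to 3 counts per library.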
